A study of Mus musculus with 12 samples.

Results

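The comparison described here is that of FL with control in tumor cDC1s that lack DNGR-1. Its members were chosen by the genotype and treatment in the labels, as the 6 libraries of 12 that came from *Clec9a* gfp/gfp mice. They were 3 libraries from mice given FL, a plasmid encoding Flt3L, and 3 from mice given an empty plasmid (control). All 6 share the gfp allele in both copies of *Clec9a*, the gene for DNGR-1, and a B16F10 melanoma, a transplanted tumor line of the C57BL/6 background. Plasmids went in by hydrodynamic injection on the day before tumor inoculation, and cDC1s were sorted 13 days into tumor growth. The other 6 libraries, 3 from WT mice with FL and 3 from WT mice with the empty plasmid, entered the model for the spread and the comparison at the end. All mice were 7 to 10 weeks old and groups were matched for sex. *Clec9a* is missing from all cells of these mice and not from cDC1s alone, and hydrodynamic injection delivers a plasmid mainly to the liver, so that Flt3L was not given to the tumor alone. Each library was RNA from a pool of 2 to 3 mice, the pools came from 3 independent experiments, and they are the replicates.

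cDC1s are the dendritic cells that take up dying cells and cross-present their antigens to CD8+ T cells. They arise from dividing precursors in the bone marrow under Flt3L, which binds the receptor tyrosine kinase Flt3 on the precursors and on the mature cells. DNGR-1 is a receptor of cDC1s for the F-actin that dead cells expose. Dendritic cells that mature in a tissue switch on CCR7, which guides them to the lymph node, together with costimulatory molecules and cytokines such as IL-12, and they leave the cell cycle. In bulk RNA of sorted cells, a lower level can mean fewer cells of a type that express a gene or less of its RNA per cell, and these cannot be told apart here.

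The gene for DNGR-1 and the markers of cDC1s were read first, as a check of the labels. *Clec9a* stood at 0.269 to 10.9 CPM (counts scaled by library size and TMM) in the 6 *Clec9a* gfp/gfp libraries, against 288 to 388 CPM in the 6 WT libraries (exact two-sided permutation test, p = 0.00216). Within the gfp/gfp libraries the highest value, 10.9 CPM, was that of control library 3. The cDC1 genes *Irf8*, *Xcr1*, *Itgae*, *Cd24a*, *Wdfy4* and *Flt3* were among the most abundant genes of all 6 libraries, with *Irf8*, the lineage's transcription factor, at 2588 to 3474 CPM. The markers *Tlr3*, *Cadm1*, *Itgax*, *Zbtb46* and *Batf3* ranked lower, *Batf3* at percentile 74.6 (34.1 to 75.8 CPM) and *Zbtb46* at 90.2. *Zbtb46* was at 92.2, 119.5 and 107 CPM with FL, against 156, 263 and 179 CPM with control. It was thus lower in every FL library, as were 13.6% of all genes. The effective library size was 20.2 to 24.1 M counts in the FL libraries. In the control libraries it was 18.6 and 21.0 M, and 3.06 M in library 3. A value of 1 CPM therefore stood on 20 to 24 counts in the FL libraries and on 19, 21 and 3 counts in control libraries 1, 2 and 3. FL library 3 lay apart from FL libraries 1 and 2 on the first principal component of all 12 libraries (−46.3 against −27.3 and −17.2), and control libraries lay at 9.18, 11.9 and −3.89. On the second component the control libraries were split, with libraries 2 and 3 at −31.8 and −40.7 and library 1 at 2.10. The FL libraries lay at 13.8, 7.23 and 17.7 there.

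With FL, 226 of 11255 genes were higher (2.01%) and 388 were lower (3.45%) in *Clec9a* gfp/gfp cDC1s, 614 in all (5.46%), at an adjusted p under 0.1 by limma. Genes past this threshold are referred to as called. The called genes that rose had a median log2 fold change of 1.36, and those that fell had a median of −1.27. The groups did not overlap for 220 of the 226 and for 385 of the 388, while over all genes tested 10.6% were higher and 13.6% lower in every FL than in every control library. The calls were made on these same libraries and favor such genes, so the separation adds no support to them. With upper-quartile scaling of the libraries the split was 294 higher and 319 lower. By limma-voom on counts computed back from the values it was 122 and 266. The fold changes are those of log2(CPM + 1), which understates the change of genes at low levels.

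**Figure D1:**
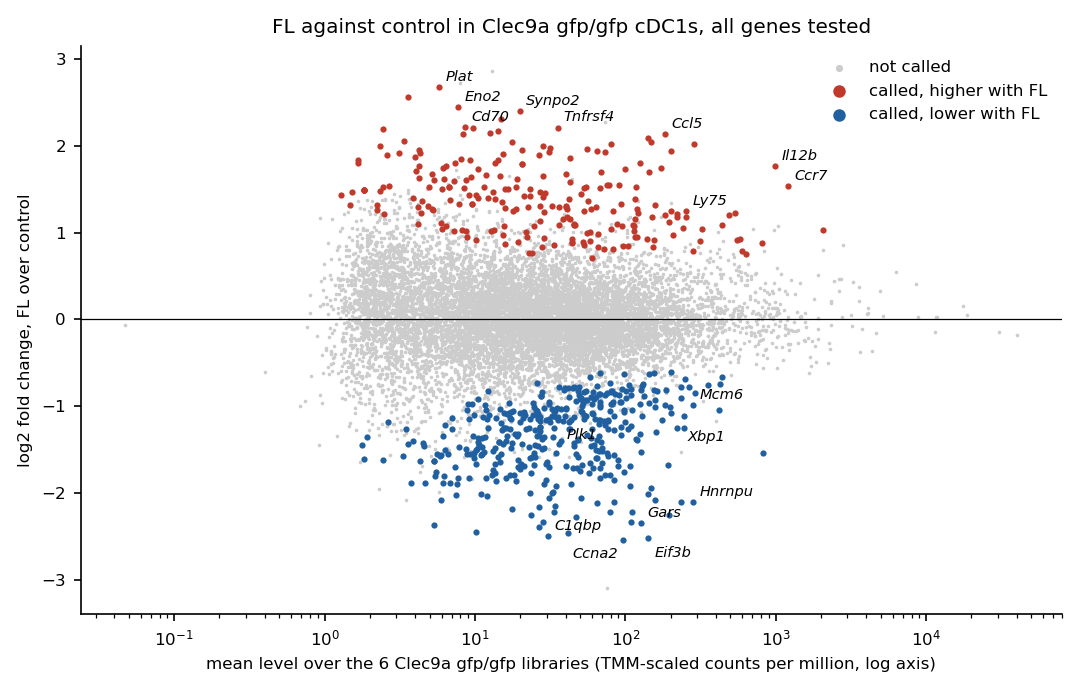
Each point is a gene, by its mean level over the 6 *Clec9a* gfp/gfp libraries (x axis, TMM-scaled CPM, log axis) and its log2 fold change of FL over control (y axis). Red points are the 226 genes called higher and blue points the 388 called lower, and grey points were not called.

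The number of calls rested on which libraries were in the fit. Without FL library 3, 21 genes were called higher and 85 lower, and without control library 3, 62 and 148. Without FL library 1 the counts were 78 and 93, and without control library 2 they were 134 and 119. Without FL library 3 and control library 3 together, a setting chosen after seeing the data, limma called 0 genes (967 at an unadjusted p under 0.05) and limma-voom called 0 (975). In that limma fit all 614 genes had the same sign as with all libraries. For the genes whose groups did not overlap this was fixed, since leaving libraries out cannot turn their sign. The median was 1.10 against 1.36 for those that rose, and −1.24 against −1.27 for those that fell. FL library 3 was the highest of the FL libraries for 199 of the 226 genes that rose (88.1%), against 36.3% over all genes tested. Control library 2 was the highest control library for 244 of the 388 genes that fell (62.9%), against 33.1% over all genes. Of the genes called with all libraries, 18 that rose and 70 that fell kept their call without each of the 6 libraries in turn. Among the genes named below, these included *Ccl5*, *Cd70*, *Samsn1*, *Tnfrsf9* and *Cd63* of the genes that rose, and *Ccna2*, *Mybl2*, *Cdc45*, *Aurka*, *Fzr1*, *Srsf1*, *Xbp1* and *Egr1* of those that fell.

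**Figure D2:**
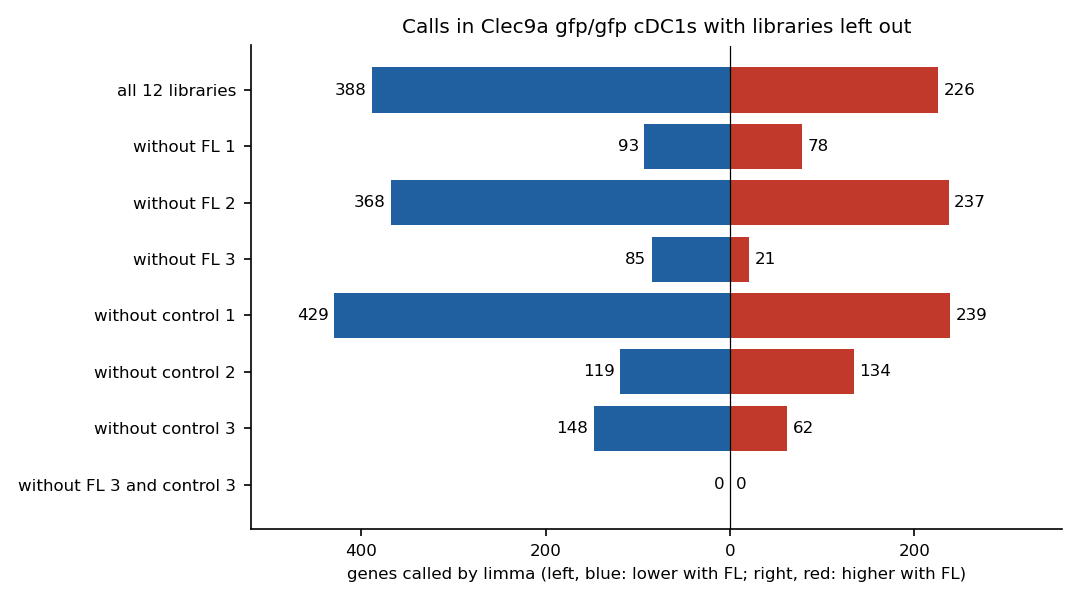
Bars give the number of genes called by limma (x axis) in the fit of all 12 libraries and with libraries left out (y axis), with genes lower with FL to the left in blue and genes higher with FL to the right in red. The bars stand at 388 lower and 226 higher with all libraries, reach 429 and 239 without control library 1, and are 0 and 0 without FL library 3 and control library 3.

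Genes of dendritic cell maturation rose. Of 44 measured genes of a mature dendritic cell list, 21 were called higher (47.7%, against 2.01% over all genes) and 0 lower. Of the 44, 43 had a positive fold change, and the median log2 fold change was 1.01, against 0.01 over all genes tested. The list was written with earlier results of these data known. Without FL library 3 the count was 5 higher and the median 0.69, and without control library 3 they were 8 and 0.95. By library, the list's median deviation from each gene's mean was 0.32, 0.27 and 1.17 in FL libraries 1, 2 and 3 on the log2 scale, against −0.94, −0.08 and −0.61 in control libraries 1, 2 and 3. All FL libraries were above all control libraries, and FL library 3 and control library 1 lay farthest apart.

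Among the costimulatory ligands, *Cd70*, which engages CD27 on T cells, stood at 13.1, 11.2 and 20.3 CPM in FL libraries 1, 2 and 3, against 2.12, 2.78 and 2.12 CPM in control libraries 1, 2 and 3. The groups lay far apart, 14.9 ± 4.84 CPM with FL and 2.34 ± 0.381 CPM with control (SD, n = 3 each). Its log2 fold change was 2.21 (SE 0.41, adjusted p = 0.0143 by limma). *Cd200*, whose product binds an inhibitory receptor of myeloid cells, was at 117, 105 and 244 CPM with FL, against 29.0, 52.6 and 51.1 CPM with control, which gave a log2 fold change at 1.73 (adjusted p = 0.0286, and 0.186 without FL library 3, by limma). Not all maturation genes passed the test. *Cd83*, a surface marker of mature dendritic cells, was at 1812, 1884 and 4357 CPM with FL, against 1579, 1120 and 1581 CPM with control (log2 fold change 0.80, adjusted p = 0.153). *Cd80*, a ligand of CD28, was at 21.2, 29.8 and 45.2 CPM with FL, against 18.5, 25.8 and 19.4 CPM with control, and its groups overlapped (log2 fold change 0.52, adjusted p = 0.399). *Tnfsf9*, the ligand of 4-1BB, also overlapped (log2 fold change 0.96, adjusted p = 0.185), as did *Cd86* (0.16, adjusted p = 0.793). The checkpoint ligand gene *Cd274*, for PD-L1, had a log2 fold change of 0.97 (adjusted p = 0.16), with 172, 182 and 500.3 CPM in the FL libraries and 116, 133 and 134 CPM in the control libraries.

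The migration receptor gene *Ccr7* was at 1392, 1184 and 2896 CPM in FL libraries 1, 2 and 3, against 443, 850 and 515 CPM in control libraries 1, 2 and 3. Every FL library was above every control library, and FL library 3 was the highest. The log2 fold change was 1.54 (SE 0.41, adjusted p = 0.0545 by limma), and the call was lost without FL library 3 (adjusted p = 0.297) and in 3 more of the 6 fits that left out a library. *Ccrl2*, an atypical chemoattractant receptor, rose by 1.68 (adjusted p = 0.0485, and 0.276 without FL library 3). Over the 11 chemokine receptor genes tested, *Ccr7* and *Ccrl2* were called (18.2%, against 2.01% higher over all genes) and the median was −0.05.

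Of 18 cytokine genes tested, 3 were called higher and 0 lower, against 2.01% higher over all genes, with a median of 0.37. The count was 0 without FL library 3 and 1 without FL library 1, control library 1 or control library 3, and the median was 0.05 without both libraries numbered 3. *Il12b*, for the p40 chain of IL-12, was at 1186, 913 and 2449 CPM in FL libraries 1, 2 and 3, against 208, 715 and 451 CPM in control libraries 1, 2 and 3. Its log2 fold change was 1.76 (SE 0.49, adjusted p = 0.0658 by limma, and 0.33 without FL library 3). The spread was wide in both groups, and the nearest libraries of the 2 groups were FL library 2 and control library 2. *Il15*, whose product sustains CD8+ T cells and NK cells, was at 32.6, 36 and 43.5 CPM with FL, against 13.4, 15.3 and 21.4 CPM with control, which gave a log2 fold change at 1.13 (SE 0.24, adjusted p = 0.0225, and 0.136 without FL library 3). *Il15ra*, which presents IL-15 on the cell surface, was at 104, 98.0 and 143 CPM with FL, against 32.3, 77.3 and 41.9 CPM with control (log2 fold change 1.25, adjusted p = 0.0448, and 0.234 without FL library 3). The ligand and the receptor chain that carries it thus had fold changes of like size. *Osm*, a cytokine of the IL-6 family, was at 27.2, 14.9 and 90.5 CPM with FL, against 7.8, 12.7 and 5.71 CPM with control (log2 fold change 1.89, adjusted p = 0.0604, and 0.318 without FL library 3).

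Of 17 chemokine genes tested, 4 were called higher (23.5%, against 2.01% over all genes) and 0 lower, and the median log2 fold change was 1.12. The count was 1 in each fit without an FL library or without control library 2 or 3. *Ccl5*, for a chemokine that attracts T cells, was at 285, 199.8 and 421 CPM in FL libraries 1, 2 and 3, against 57.8, 93.8 and 50.8 CPM in control libraries 1, 2 and 3. The lowest FL library was above the highest control library, with means of 302 ± 112 CPM and 67.4 ± 23.1 CPM (SD, n = 3 each). The log2 fold change was 2.13 (SE 0.40, adjusted p = 0.0143 by limma), and it stayed called without each of the 6 libraries in turn, with an adjusted p of at most 0.0932. *Ccl3*, for another inflammatory chemokine, was at 15.1, 19.7 and 30.2 CPM with FL, against 14.9, 3.40 and 8.0 CPM with control, so that FL library 1 and control library 1 were nearly equal (log2 fold change 1.35, adjusted p = 0.0946, and 0.392 without FL library 3). The monocyte attractants *Ccl2* and *Ccl9* rose by 1.40 and 1.61 (adjusted p = 0.0862 and 0.0785), at means of 18 and 8.54 CPM with FL and 6.51 and 2.15 CPM with control. Both calls were lost without FL library 3 (adjusted p = 0.36 and 0.333). Markers of macrophages and monocytes, cells that can make these chemokines, had a summed level of 1523, 1538 and 1936 CPM in FL libraries 1, 2 and 3, against 1155, 1119 and 1571 CPM in control libraries 1, 2 and 3, and their part in the result was not tested. *Ccl22*, a product of mature dendritic cells that attracts CCR4-bearing T cells, was at 600.2, 795 and 1484 CPM with FL, against 325, 599 and 415 CPM with control (log2 fold change 1.04, adjusted p = 0.132). *Cxcl9*, which attracts effector T cells through CXCR3, had a fold change below 0 (−0.64, adjusted p = 0.279), with 119, 143 and 184 CPM with FL, against 146, 370.1 and 221 CPM with control.

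**Figure D3:**
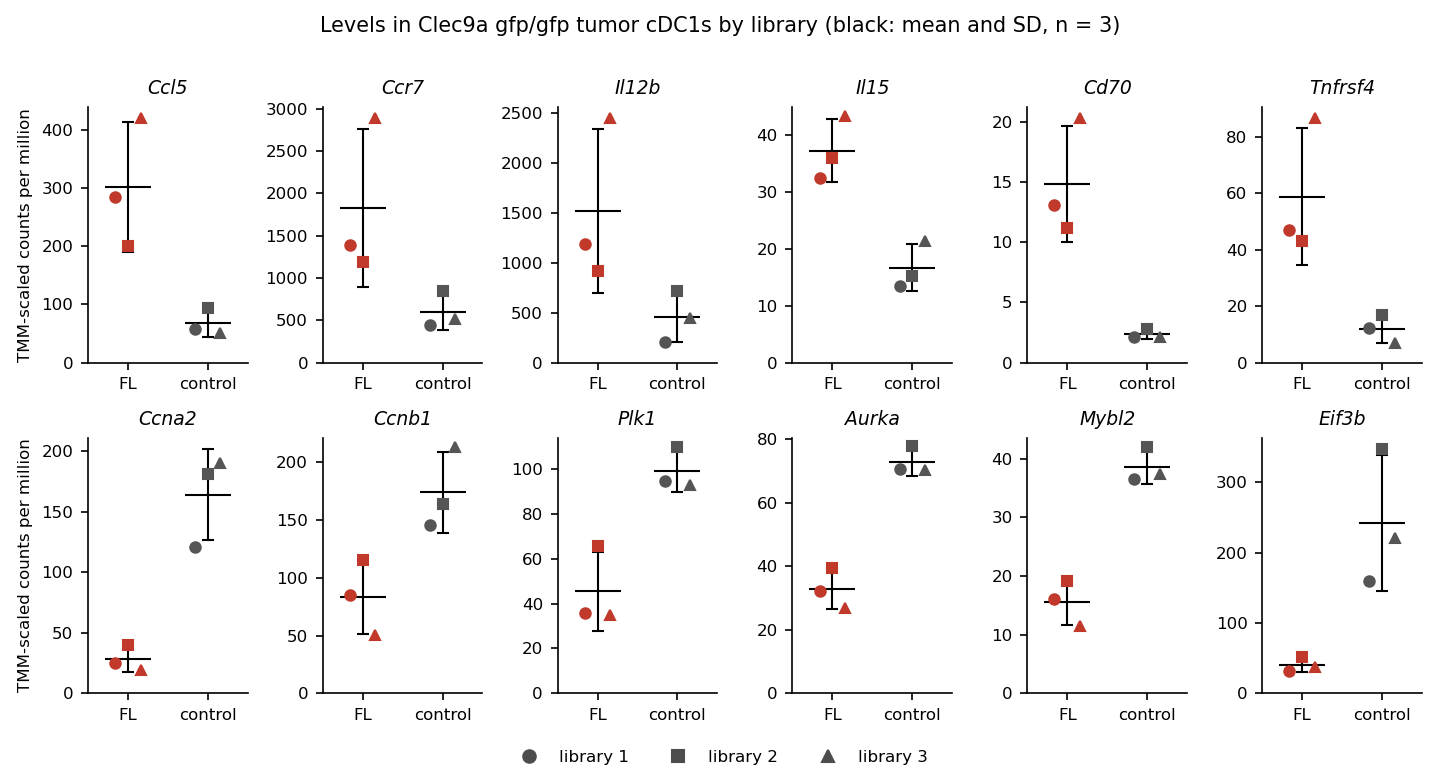
Points are the libraries of the FL group (red, left) and the control group (grey, right) of *Clec9a* gfp/gfp cDC1s, marked by library number, with the level in TMM-scaled CPM on the y axis from 0 and the mean and SD in black. The FL libraries lie above all control libraries for the 6 genes of the upper row and below them for the 6 of the lower row, and FL library 3 is the highest in every panel of the upper row.

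Receptors of the TNF family moved in both directions. Of 18 tested, 4 were called higher and 1 lower, against 2.01% higher and 3.45% lower over all genes. *Tnfrsf4*, for the costimulatory receptor OX40, was at 46.9, 42.9 and 86.6 CPM in FL libraries 1, 2 and 3, against 12.1, 16.7 and 7.02 CPM in control libraries 1, 2 and 3 (log2 fold change 2.21, SE 0.48, adjusted p = 0.0225 by limma, and 0.148 without FL library 3). *Tnfrsf9*, for 4-1BB, was at 20.2, 25.4 and 39.6 CPM with FL, against 8.88, 7.82 and 9.95 CPM with control (log2 fold change 1.52, SE 0.29, adjusted p = 0.0147). The death receptor gene *Fas* rose by 1.65 (adjusted p = 0.0624, and 0.305 without FL library 3), and *Tnfrsf1b*, for TNF receptor 2, rose by 1.22 (adjusted p = 0.0885). Neither *Fas* nor *Tnfrsf1b* was called without FL library 3 or without control library 3. The gene that fell was *Tnfrsf21*, for death receptor 6, at 10.7, 17.2 and 25.9 CPM with FL, against 45.2, 51.7 and 56.0 CPM with control (log2 fold change −1.53, SE 0.36, adjusted p = 0.0297, and 0.143 without FL library 1).

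In the NF-kB pathway, which transmits signals of these receptors, 4 of 31 genes were called higher (12.9%, against 2.01% over all genes) and 0 lower, with a median of 0.34. *Rel*, for the subunit c-Rel, was at 214, 169 and 442 CPM with FL, against 99.99, 130.3 and 117 CPM with control (log2 fold change 1.12, adjusted p = 0.0597). *Map3k14*, for the kinase NIK of the alternative pathway, rose by 1.39 (adjusted p = 0.0657). *Nfkbib*, for the inhibitor IkB-beta, rose by 1.02 (adjusted p = 0.0374), so a subunit, a kinase and an inhibitor were all among the called genes. Each of these 3 calls was lost without FL library 3 (adjusted p = 0.313, 0.337 and 0.23 by limma), and without it the list held 0 called genes higher. *Nfkb2* and *Relb*, the subunits that NIK activates, were not called (0.46 and 0.17, adjusted p = 0.497 and 0.899).

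Interferon-stimulated genes had a median of 0.39, with 4 of 46 called higher (8.70%, against 2.01% over all genes) and 0 lower by limma and 0 called by limma-voom. *Isg15*, for a ubiquitin-like protein, was at 60.9, 49.7 and 116 CPM with FL, against 39.8, 32.8 and 32.5 CPM with control (log2 fold change 1.00, adjusted p = 0.0932). *Ifih1*, for the RNA sensor MDA5, rose by 0.94 (adjusted p = 0.0758), and *Oas1a* and *Oas1g*, for RNA-activated synthetases, by 1.3 and 1.8 (adjusted p = 0.0645 and 0.0506). The last 2 are near-identical copies and the counting could have split their reads, so their values are uncertain. The list's median deviation was 0.04, −0.15 and 0.64 in FL libraries 1, 2 and 3, against −0.35, −0.14 and −0.01 in control libraries 1, 2 and 3, so only FL library 3 stood well above the control range. Without it the list held 0 called genes and a median of 0.12.

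Of 25 MHC class I genes, 3 were called higher (12%, against 2.01% over all genes) and 20 had a fold change above 0, with a median of 0.22. In 9 of the 25 every FL library was above every control library, against 10.6% over all genes. None of the 3 calls held without FL library 3 or by limma-voom, which called 0 genes of the list. *Nlrc5*, their transactivator, was at 172, 137 and 241 CPM with FL, against 117, 91.5 and 75.6 CPM with control (log2 fold change 0.93, adjusted p = 0.0686, and 0.335 without FL library 3). *H2-Q7* and *H2-Q4*, class Ib genes whose reads may be split among copies, rose by 0.75 and 0.87 (adjusted p = 0.0773 and 0.0825, and 0.33 and 0.324 without FL library 3). Of 16 MHC class II genes, 1 was called higher (6.25%, against 2.01% over all genes), *H2-Eb2* (1.39, adjusted p = 0.0604, and 0.3 without FL library 3). The main class II genes were level, as for *H2-Aa*, which was at 11314, 10985 and 13073 CPM with FL, against 11495, 12763 and 10410 CPM with control (log2 fold change 0.03, adjusted p = 0.964). *Ly75*, for the endocytic receptor DEC-205, was the called gene among 27 of a cDC1 identity list (3.70%, against 2.01% higher over all genes). It was at 358, 243 and 478 CPM with FL, against 116, 163 and 163 CPM with control (log2 fold change 1.25, adjusted p = 0.0225, and 0.149 without FL library 3). The median of that list was 0.02, with 14 genes above 0 and 13 below. *Flt3* itself was at 625, 607 and 687 CPM with FL, against 610.4, 637 and 712 CPM with control (log2 fold change −0.03, adjusted p = 0.957).

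Around Flt3 signaling, 3 of 43 genes were called higher and 1 lower, against 2.01% higher and 3.45% lower over all genes, so that the lower count was not above that background. *Socs2*, for an inhibitor of cytokine receptors that also belongs to the mature list, was at 61.2, 60.1 and 123 CPM with FL, against 19.8, 40.8 and 22 CPM with control (log2 fold change 1.52, adjusted p = 0.0329). *Cblb*, for a ubiquitin ligase that restrains receptor signaling, was at 161, 115 and 235 CPM with FL, against 60.4, 68.8 and 73.3 CPM with control (log2 fold change 1.27, adjusted p = 0.0258). Both genes encode brakes on receptor signaling. *Pik3r1*, for the regulatory p85-alpha subunit of PI3 kinase, rose by 1.18 (adjusted p = 0.0353). *Prr5*, for a component of the mTORC2 complex, fell, with 8.20, 10.3 and 9.20 CPM with FL, against 18.4, 20.7 and 20.7 CPM with control (log2 fold change −1.04, SE 0.24, adjusted p = 0.0277). None of the 4 calls held without FL library 3, where the adjusted p was 0.213 for *Socs2*, 0.168 for *Cblb* and 0.116 for *Prr5*. The call of *Prr5* was also lost without FL library 1 (0.125), control library 2 or control library 3 (0.104).

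The largest rises lay partly outside these lists. *Plat*, for tissue plasminogen activator, was at 8.30, 6.69 and 17.1 CPM in FL libraries 1, 2 and 3, against 0.0268, 1.26 and 1.14 CPM in control libraries 1, 2 and 3, with 0 counts in control library 1 and 3 counts in control library 3. Its log2 fold change was 2.68 (SE 0.39, adjusted p = 0.00970 by limma). *Eno2*, for an enolase best known from neurons, was at 8.0, 10.5 and 23.3 CPM with FL, against 1.10, 2.49 and 1.14 CPM with control (2.44, adjusted p = 0.0108). Another enolase gene, *Eno3*, and *Pfkfb3*, whose product makes an activator of glycolysis, rose by 1.40 and 1.21 (adjusted p = 0.0256 and 0.0298). Both of these calls were lost without FL library 3. The median of 35 genes of glycolysis and hypoxia was −0.04, and *Pdk1*, for a kinase that restrains entry into the citric acid cycle, was called lower. The call of *Pdk1* was lost without any of the FL libraries, without control library 2 or 3, and by limma-voom. *Synpo2*, for an actin-binding protein, *Dnajc12*, for a co-chaperone, and *Samsn1*, for an adaptor of immune receptors, rose by 2.40, 2.30 and 2.08 (adjusted p = 0.0124, 0.0108 and 0.0134). *Cd63*, for a tetraspanin of late endosomes, was at 223, 158 and 331 CPM with FL, against 37.7, 82.7 and 51.7 CPM with control (2.04, SE 0.36, adjusted p = 0.0124). *Plat*, *Eno2*, *Synpo2*, *Dnajc12*, *Samsn1* and *Cd63* kept their calls without each of the 6 libraries in turn. *Pdcd1*, for the inhibitory receptor PD-1, and *Adora2a*, for an adenosine receptor, rose by 2.14 and 2.04 (adjusted p = 0.0347 and 0.0269), with FL library 3 at 25.7 and 58.0 CPM and FL libraries 1 and 2 at 7.85 and 9.14 CPM for *Pdcd1* and 15.4 and 15.6 CPM for *Adora2a*. In the control libraries *Pdcd1* was at 3.57, 0.499 and 3.10 CPM, and *Adora2a* at 4.21, 9.05 and 3.43 CPM. Both calls were lost without FL library 3 (adjusted p = 0.222 and 0.163), as were those of *Etnk2*, for an ethanolamine kinase, and *Snn*, for stannin (2.20 and 2.17 with all libraries, 0.188 and 0.102 without it).

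Cell cycle genes fell. Over 9 lists with 259 genes tested, 46 were called lower (17.8%, against 3.45% of all genes) and 0 higher, 234 had a negative fold change, and the median was −0.55. In 137 of the 259 every FL library was below every control library, a pattern that 13.6% of all genes showed. Over the 259 genes, the median deviation from each gene's mean was −0.20, −0.04 and −0.57 in FL libraries 1, 2 and 3 on the log2 scale, against 0.21, 0.22 and 0.35 in control libraries 1, 2 and 3. FL library 2 lay nearest to the controls and FL library 3 farthest. The count was 7 lower without FL library 3, 9 without FL library 1, 12 without control library 2 and 12 without control library 3, and the median without FL library 3 was −0.38. By limma-voom 28 were called lower.

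The fall ran from the cyclins to the proteins that divide the cell. *Ccna2*, for cyclin A2 of S phase and mitotic entry, was at 25, 40.0 and 19.3 CPM in FL libraries 1, 2 and 3, against 121, 181 and 190 CPM in control libraries 1, 2 and 3. It had the smallest p of all genes and the largest fall of the called genes, with a log2 fold change at −2.53 (SE 0.28, adjusted p = 0.000785 by limma), and the adjusted p was at most 0.0158 without each of the 6 libraries in turn. The mitotic cyclin genes *Ccnb1* and *Ccnb2* fell less, by 1.11 and 0.95 (adjusted p = 0.0365 and 0.0511). *Ccnb1* was at 85.3, 115 and 50.7 CPM with FL, against 146, 164 and 213 CPM with control. Both calls were lost without FL library 3 (adjusted p = 0.218 and 0.276). Their partner kinase gene *Cdk1* did not pass the test, with 87.6, 115 and 55.8 CPM with FL, against 117, 155 and 157 CPM with control (log2 fold change −0.77, adjusted p = 0.108), nor did the G1 kinase gene *Cdk4* (−0.42, adjusted p = 0.258).

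Of the transcriptional regulators, *Mybl2*, for B-Myb, which activates mitotic genes, was at 16, 19.2 and 11.4 CPM with FL, against 36.4, 42.0 and 37.4 CPM with control (log2 fold change −1.29, SE 0.24, adjusted p = 0.0134). *Lin54*, for the subunit that binds DNA in the same complex, fell by 1.14 (adjusted p = 0.0304, and 0.147 without control library 2). *Cdkn2c*, for the CDK inhibitor p18, also fell, by 1.83 (adjusted p = 0.0403), so an inhibitor was among the genes that fell. Its levels were 3.94, 5.28 and 3.56 CPM with FL, against 11.7, 32.5 and 13.9 CPM with control, and the call was lost without control library 2 (adjusted p = 0.199). Of the licensing and replication genes, *Cdc45*, for the helicase cofactor, was at 45.7, 41.2 and 33.1 CPM with FL, against 71.2, 107 and 104 CPM with control (−1.2, SE 0.22, adjusted p = 0.0133). *Mcm6*, for a helicase subunit, was at 184, 210.2 and 168 CPM with FL, against 283, 388 and 464 CPM with control (−0.99, adjusted p = 0.0436, and 0.207 without FL library 3). *Rfc4*, for the clamp loader, fell by 0.78 (adjusted p = 0.0642), while *Pcna*, for the clamp itself, had a fold change of −0.48 that did not pass (adjusted p = 0.231). The call of *Rfc4* was lost without FL library 1, FL library 3, control library 2 or control library 3.

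Mitotic genes made up most of the calls. Of 29 genes of mitotic kinases and the anaphase-promoting complex 10 were called lower (34.5%), of 32 of spindle motors and cytokinesis 8 (25%), and of 38 of the kinetochore and its checkpoint 7 (18.4%), against 3.45% over all genes. The first of these lists had 3 to 12 calls when 1 of the 6 libraries was left out. The spindle list had 0 without FL library 3 or control library 3, and the kinetochore list 0 without FL library 1, FL library 3, control library 2 or control library 3 and 1 by limma-voom. *Aurka*, for Aurora kinase A, was at 32.1, 39.4 and 26.9 CPM with FL, against 70.6, 78.0 and 70.3 CPM with control (log2 fold change −1.14, SE 0.22, adjusted p = 0.0152). *Plk1*, for Polo-like kinase 1, was at 35.8, 65.7 and 34.9 CPM with FL, against 94.5, 110 and 92.9 CPM with control (−1.16, SE 0.27, adjusted p = 0.0279, and 0.168 without FL library 3). Both kinases drive centrosome separation and entry into mitosis. *Fzr1* and *Cdc20*, for the activators of the anaphase-promoting complex, fell by 1.77 and 0.83 (adjusted p = 0.0124 and 0.0565), and *Cdc16*, for a subunit of it, by 1.17 (adjusted p = 0.0143). *Cdc20* was at 54.9, 75.0 and 46.4 CPM with FL, against 109, 92.5 and 109 CPM with control, and its call was lost without FL library 3 (adjusted p = 0.284). *Tacc3* and *Nusap1*, for spindle proteins, fell by 0.98 and 0.95 (adjusted p = 0.0251 and 0.0269), and *Ndc80* and *Nuf2*, for the outer kinetochore, by 0.91 and 0.92 (adjusted p = 0.071 and 0.0569). These 4 calls were lost without FL library 3, with an adjusted p of 0.161 for *Tacc3*, 0.169 for *Nusap1*, 0.341 for *Ndc80* and 0.291 for *Nuf2*. *H2afx*, for the histone variant of DNA damage foci, fell by 1.82 (SE 0.29, adjusted p = 0.0102). *Cdca3*, a trigger of mitotic entry, had overlapping groups and just passed (−0.85, adjusted p = 0.0992).

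Many of these genes share sequence at their start sites. The promoter window of each gene, 250 bases before to 50 bases after its start, was taken from RefSeq on GRCm38.p6 and read for 4 motifs on both strands. They were TTTGAA, the core of the cell cycle genes homology region known from mitotic genes, CCAAT, bound by NF-Y, GCGGGAA, a form of the E2F site, and GGANTTTCC, a form of the NF-kB site. The windows of *Aurka*, *Plk1*, *Cdc20*, *Ccnb2* and *Cdca3* are shown because they hold both TTTGAA and CCAAT, with all matches to the 4 motifs in capitals (CCAAT appears as ATTGG where it lies on the other strand). The windows lie at chr2:172370521-172370820 (minus strand), chr7:122159185-122159484 (plus), chr4:118437294-118437593 (minus), chr9:70421505-70421804 (minus) and chr6:124829926-124830225 (plus).
Aurka: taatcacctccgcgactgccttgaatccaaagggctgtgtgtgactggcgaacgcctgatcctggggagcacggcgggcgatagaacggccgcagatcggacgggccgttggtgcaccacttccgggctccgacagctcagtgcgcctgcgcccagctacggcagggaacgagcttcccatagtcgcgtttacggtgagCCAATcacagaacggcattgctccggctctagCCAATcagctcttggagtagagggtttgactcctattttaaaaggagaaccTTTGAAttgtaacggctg
Plk1: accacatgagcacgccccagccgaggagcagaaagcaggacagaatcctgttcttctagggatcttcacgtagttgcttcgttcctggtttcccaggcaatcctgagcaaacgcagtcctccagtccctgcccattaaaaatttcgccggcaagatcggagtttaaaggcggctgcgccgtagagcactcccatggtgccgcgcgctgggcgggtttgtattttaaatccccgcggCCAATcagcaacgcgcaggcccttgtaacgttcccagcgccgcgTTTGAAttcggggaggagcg
Cdc20: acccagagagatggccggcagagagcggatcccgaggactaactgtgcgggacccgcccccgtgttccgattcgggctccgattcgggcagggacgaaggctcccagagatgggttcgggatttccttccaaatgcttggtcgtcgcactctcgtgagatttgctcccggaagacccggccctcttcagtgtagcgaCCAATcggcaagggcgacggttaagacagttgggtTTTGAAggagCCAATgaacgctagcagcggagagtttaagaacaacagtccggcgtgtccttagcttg
Ccnb2: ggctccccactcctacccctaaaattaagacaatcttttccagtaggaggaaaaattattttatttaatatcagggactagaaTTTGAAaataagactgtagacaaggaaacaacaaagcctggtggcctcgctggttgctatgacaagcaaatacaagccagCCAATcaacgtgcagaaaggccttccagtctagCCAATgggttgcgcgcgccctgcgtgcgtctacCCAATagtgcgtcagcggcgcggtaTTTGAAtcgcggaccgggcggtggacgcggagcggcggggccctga
Cdca3: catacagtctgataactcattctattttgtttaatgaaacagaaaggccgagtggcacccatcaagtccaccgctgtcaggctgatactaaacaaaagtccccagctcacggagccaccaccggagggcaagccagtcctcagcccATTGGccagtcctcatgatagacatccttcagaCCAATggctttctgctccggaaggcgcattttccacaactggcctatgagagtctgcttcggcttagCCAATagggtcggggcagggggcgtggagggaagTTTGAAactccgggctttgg

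In these 5 windows TTTGAA lies within the last 100 bases, close to the start site, with a CCAAT upstream of it. Of the 46 called cell cycle genes that fell, 39 were matched by symbol, with 45 promoters. TTTGAA was in 25 of the 45 (55.6%), against 12.7% of the promoters of all genes tested and 17.9% of all 32851 promoters of the table. It was in the last 100 bases in 23 (51.1%), against 3.21% of the promoters of all genes tested, a window chosen after the matches were seen. CCAAT was in 28 (62.2%), against 38.4%, and TTTGAA with CCAAT in 18 (40.0%), against 5.25%. GCGGGAA was in 5 (11.1%), against 8.44%. The other genes that fell had TTTGAA in 13.7% and CCAAT in 36.8% of 307 promoters. Of 215 promoters of genes that rose, 13.0% held TTTGAA and 4.19% held GGANTTTCC, against 1.33% of all genes tested. The called mature dendritic cell genes that rose also held TTTGAA above the share of all genes, in 7 of 25 promoters (28%) and within the last 100 bases in 3 (12%), and held GGANTTTCC in 3 (12%). These shares describe letters in a window, and no binding was measured. The genes came from cell cycle lists and TTTGAA is known from mitotic genes, so a high share follows from that choice. The share among cell cycle genes that were not called was not computed, so the motif is not tied here to the fall with FL.

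**Figure D4:**
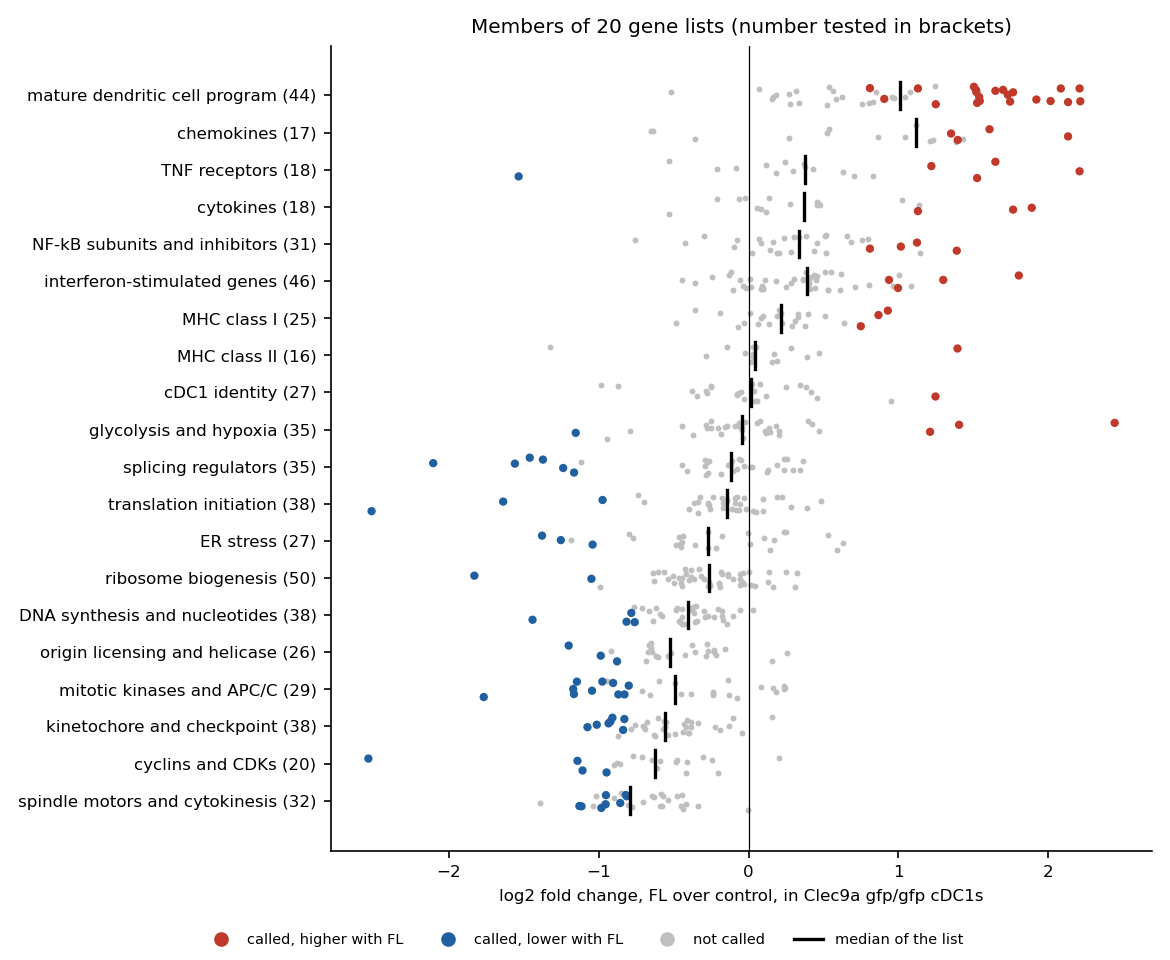
Points are the members of 20 gene lists (y axis, number tested in brackets) by log2 fold change of FL over control in *Clec9a* gfp/gfp cDC1s (x axis), red where called higher, blue where called lower and grey where not called, with black bars at the medians. The medians run from −0.79 for spindle motors and cytokinesis to 1.12 for chemokines.

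Other genes that fell belong to growth and to the making of proteins, and these lists moved less as wholes. *Eif3b*, for a scaffold subunit of the translation initiation factor eIF3, was at 31.7, 51.6 and 37.6 CPM in FL libraries 1, 2 and 3, against 159, 348 and 220.5 CPM in control libraries 1, 2 and 3. The log2 fold change was −2.51 (SE 0.39, adjusted p = 0.0102 by limma), yet of 38 initiation genes 3 were called lower (7.89%, against 3.45% over all genes) and the median was −0.14. *Gars*, for glycyl-tRNA synthetase, *H13*, for signal peptide peptidase, and *Rnpep*, for an aminopeptidase, fell by 2.35, 2.25 and 2.22 (adjusted p = 0.0108, 0.0124 and 0.00664) and kept their calls without each library in turn. *C1qbp* and *Tomm40*, for proteins of mitochondria, and *Mgat2*, for a Golgi enzyme of N-glycans, fell by 2.5, 2.39 and 2.46 (adjusted p = 0.0403, 0.0204 and 0.0193). In these 3 genes control library 2 was the highest. *C1qbp* was at 6.56, 9.55 and 7.15 CPM with FL, against 34.7, 93.1 and 33.8 CPM with control and it lost its call without that library (adjusted p = 0.189). *Marc2* and *Rcn2* were also among the 12 largest falls, at −2.33 and −2.27, as was *Hist1h2ap*, a member of the H2A histone family whose reads may be split among copies (−2.34).

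Of 35 splicing regulators 6 were called lower (17.1%, against 3.45% over all genes) and 0 higher, with a median of −0.12. *Srsf1* and *Srsf6*, for SR proteins, were at 52.2, 62.0 and 52.5 CPM and at 39.7, 47.0 and 37.9 CPM with FL, against 112, 134 and 152 CPM and 101, 149 and 126 CPM with control. Their log2 fold changes were −1.24 and −1.56 (adjusted p = 0.0143 and 0.0124). *Hnrnpu*, for a nuclear scaffold protein, was at 90.7, 120 and 87.2 CPM with FL, against 268, 737 and 388 CPM with control (−2.10, adjusted p = 0.0214, and 0.107 without FL library 3). Of 50 genes of ribosome biogenesis 2 were called lower (4%, near the 3.45% over all genes), 41 had a negative fold change and the median was −0.26. In the unfolded protein response, *Xbp1*, for its transcription factor, was at 90.3, 182 and 129 CPM with FL, against 287, 302 and 335 CPM with control (−1.25, SE 0.24, adjusted p = 0.0147). *Creld2* and *Dnajc3*, for factors of protein folding in the ER, fell by 1.04 and 1.38 (adjusted p = 0.0158 and 0.0244), while *Hspa5*, for the chaperone BiP, did not pass (−0.44, adjusted p = 0.289). Of the 27 genes of that list 3 were called lower (11.1%, against 3.45% over all genes). *Insig1*, for a brake of cholesterol synthesis, fell by 1.26 (adjusted p = 0.015).

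Some immediate-early genes fell too. *Jun*, for a subunit of AP-1, was at 28.3, 48.4 and 35.8 CPM with FL, against 144, 268 and 137 CPM with control (log2 fold change −2.22, SE 0.48, adjusted p = 0.0225, and 0.107 without FL library 3). *Egr1*, for a growth-response factor, was at 19.8, 44.6 and 28.8 CPM with FL, against 115, 201 and 93.5 CPM with control (−2.10, SE 0.42, adjusted p = 0.0168). *Dusp1*, for a phosphatase of MAP kinases, fell by 2.10 (adjusted p = 0.0854, and 0.314 without control library 2). *Fos* was not called (−0.50, adjusted p = 0.32), and the median of the 25 genes was 0.20 with 17 above 0, so the 3 genes that fell (12%, against 3.45% over all genes) did not move with their list. *Ripk1*, for a kinase of death receptor signaling, fell by 1.6 (adjusted p = 0.0279), and *Cflar*, for an inhibitor of caspase-8, rose by 0.95 (adjusted p = 0.0443), and neither call held without FL library 3. *Tbx21*, for the factor T-bet, fell by 1.5 (adjusted p = 0.0338), at 2.25, 7.81 and 5.71 CPM with FL, against 14.8, 19.1 and 12.6 CPM with control. Its call was lost without FL library 1, FL library 3 or control library 2. It was the called gene among 3 NK cell markers tested (33.3%, against 3.45% lower over all genes), of which 2 had a fold change above 0.

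Markers of other cells moved with FL as well. Of 17 macrophage and monocyte markers tested of 23 listed, 4 were called higher (23.5%, against 2.01% over all genes) and 0 lower, with a median of 0.90. Of these calls 0 were made without FL library 3, at most 2 without any other of the 6 libraries and 1 by limma-voom. Their summed level was 1523 to 1936 CPM in the FL libraries and 1119 to 1571 CPM in the control libraries, so that the groups overlapped. Without *Lyz2* it was 1011, 943 and 846 CPM with FL, against 755, 818 and 1164 CPM with control. *Lyz2* itself was at 513, 595 and 1089.6 CPM with FL, against 400.1, 301 and 407 CPM with control. *C1qa* and *C1qb*, for complement C1q of macrophages, were at 8.64, 11.2 and 14.4 CPM and at 29.7, 30.9 and 36 CPM with FL, against 2.71, 3.35 and 3.10 CPM and 10.8, 15.6 and 11.6 CPM with control. The other called marker was *Ly6c2*, a gene for Ly6C, although the gates had removed Ly6C+ and F4/80+ cells. *Csf1r* was at 18.3 to 21.4 CPM with FL and 8.23 to 14.8 CPM with control, and *Adgre1*, for F4/80, at 8.64 to 11.6 and 3.78 to 6.46 CPM, above 0 in every library. Of 13 cDC2 markers tested of 16, 2 were called higher (15.4%, against 2.01% over all genes), the neighboring genes *Tmem176a* and *Tmem176b* on opposite strands. The list held 0 called genes higher without FL library 3 or control library 3. Its summed level was 241 to 475 CPM with FL and 139 to 177 CPM with control. *Sirpa*, a defining marker of cDC2s, was at 3.04 to 6.48 CPM with FL and 2.01 to 4.08 CPM with control. Of 17 markers of fibroblasts and endothelium 7 were tested and 0 called, all 7 with a fold change above 0 and a median of 0.84. Their summed level was 57.5, 102 and 129 CPM in FL libraries 1, 2 and 3, against 46.0, 30.3 and 73.3 CPM in control libraries 1, 2 and 3, highest in FL library 3. Of 9 plasmacytoid dendritic cell markers and 4 B cell markers tested, 1 each was called higher, *Spib* and *Fcrla* (11.1% and 25%, against 2.01% over all genes). The call of *Spib* was lost without FL library 3 or control library 3, and that of *Fcrla* without FL library 1. Of the T cell and neutrophil markers 2 of 16 and 1 of 12 were tested, with sums of at most 5.51 and 2.32 CPM in any library. Melanoma markers summed to 55.0 to 59.9 CPM with FL and to 25.5 to 152 CPM with control. The part of other cells in the chemokine, interferon and maturation results was not tested.

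**Figure D5:**
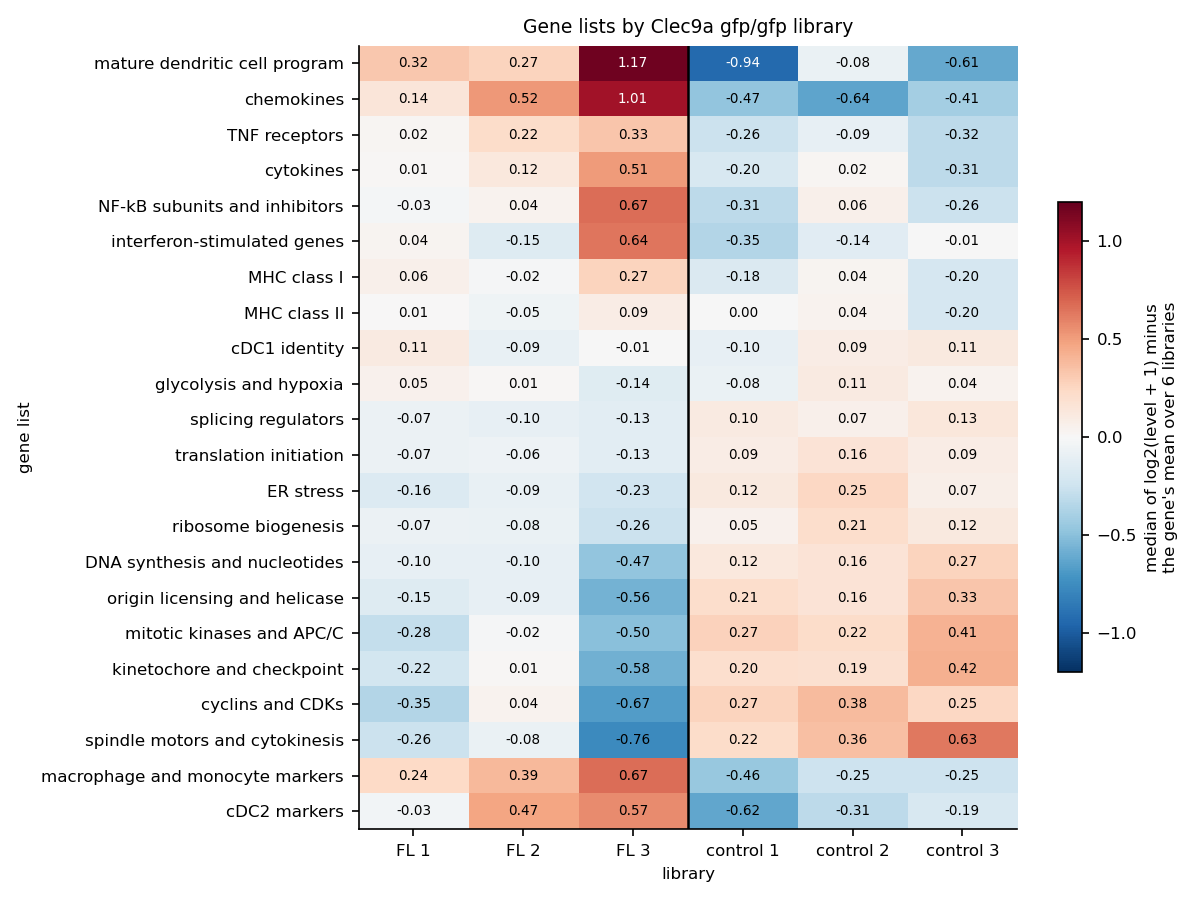
Each cell gives, for a gene list (rows) and a *Clec9a* gfp/gfp library (columns, FL left of the line and control right of it), the median over its genes of log2(level + 1) minus the gene's mean over the 6 libraries. The mature dendritic cell program is highest in FL library 3 (1.17) and lowest in control library 1 (−0.94), and spindle motors and cytokinesis are lowest in FL library 3 (−0.76).

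The effect of FL in *Clec9a* gfp/gfp cDC1s was set against that in WT cDC1s, which uses other libraries. Whereas 388 of the 614 called genes were lower in gfp/gfp cDC1s, 738 genes were called in WT cDC1s (6.56%), of which 134 were lower (1.19%). The difference of the effects was called for 0 genes by limma (1027 genes, 9.12%, at an unadjusted p under 0.05) and for 0 by limma-voom (1010 genes), so a call in 1 genotype alone shows no difference between them. Of the 226 genes that rose in gfp/gfp cDC1s, 204 had a positive fold change in WT (90.3%), and of the 388 that fell 309 had a negative one (79.6%), while 62.6% of all genes had the same sign in both. The median WT fold change was 0.82 for those that rose and −0.37 for those that fell. These genes were chosen by their change in the gfp/gfp libraries, so smaller medians in WT follow in part from that choice.

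Of the genes named above, the smallest p of the difference belonged to genes that fell. *Srsf1* had log2 fold changes of −1.24 in gfp/gfp and 0.28 in WT cDC1s, a difference of −1.51 (SE 0.33, adjusted p = 0.316 by limma). *Mybl2* had −1.29 and 0.16 (difference −1.45, adjusted p = 0.326), *Eif3b* −2.51 and −0.21 (−2.31, adjusted p = 0.353) and *Ccna2* −2.53 and −0.94 (−1.6, adjusted p = 0.353). Over the 259 cell cycle genes the median was −0.55 in gfp/gfp and −0.20 in WT cDC1s, with 46 and 17 called lower. The mature dendritic cell genes had medians of 1.01 and 0.72, with 21 and 8 called higher. Among these *Cd70* and *Ccl5* had log2 fold changes of 2.21 and 2.13 in gfp/gfp and 0.57 and 0.80 in WT cDC1s, where neither was called (adjusted p = 0.423 and 0.254), and the unadjusted p of the difference was 0.0128 and 0.0321. These differences therefore did not pass over all genes. The genes named in this paragraph had been called in gfp/gfp cDC1s, a choice that favors a larger effect there than in WT.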

How the data were processed

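RNA of sorted cDC1s (CD103+ CD24+ MHCII+ CD45+ cells without CD11b, F4/80 or Ly6C, after enrichment with CD11c beads) was amplified as SMARTer cDNA, made into Nextera XT libraries and sequenced as single-end reads of 61 bases. These kits keep no strand. Per the labels and the study's methods, the authors called bases with CASAVA 1.8.2, trimmed reads with cutadapt 1.3, dropped those under 30 bases, estimated gene counts with RSEM 1.2.3 on GRCm38 and scaled them by TMM. The deposited values are a signal of this kind, counts scaled by library size and TMM (CPM) for 11264 genes. Every value was a whole count plus 0.5 over the library's effective size, within 0.02 counts, so depth could be read from them. RSEM divides reads among near-identical genes, so that values of close paralogs are uncertain.

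The 12 libraries formed 4 groups of 3. Genes with a mean of at least 1 CPM (11255) were tested by limma 3.58.1 (R 4.3.3) with a mean-variance trend on log2(CPM + 1), with 1 mean per group, and called at a Benjamini-Hochberg adjusted p under 0.1. The code was tested on simulated data. Alternatives were pseudocounts of 0.5 and 4, other filters, scalings, weights and fits, and leaving out each library. Per the study, the pools of 2 to 3 mice came from 3 independent experiments. The labels do not say which libraries share an experiment, and p-values measure the spread between these pools. The members and gene lists were chosen with earlier results of these data known. Named genes were the 12 largest changes in each direction (called, mean of at least 5 CPM, groups not overlapping), up to 3 called genes of each list by p, and genes the study names. Other members of lists were chosen after their values were seen. Some genes are not reported here. Promoters were from a RefSeq table (GRCm38.p6). Python 3.11.15 with pandas 2.3.3, NumPy 2.4.6, SciPy 1.17.1 and matplotlib 3.10.9 was used for tables and figures.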

Additional observations from a re-analysis of the deposited data

How the results depend on the processing

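The count of called genes in *Clec9a* gfp/gfp cDC1s, 614 (226 higher and 388 lower), was within 1.5 times with other pseudocounts, filters and scalings of the libraries and with counts thinned to the shallowest library. It was 985 (373 and 612) in a fit of the 6 gfp/gfp libraries alone, 1520 (604 and 916) with sample quality weights, and 388 (122 and 266) by limma-voom. Leaving out each of the 12 libraries in turn gave 106 to 812 called genes, 21 to 301 higher and 85 to 511 lower. The lowest counts were those without FL library 3, and those without FL library 1 and control libraries 2 and 3 were 171, 253 and 210. Without FL library 3 and control library 3 together, chosen after seeing the data, 0 genes were called, 0 higher and 0 lower, by limma and by limma-voom (967 and 975 at an unadjusted p under 0.05), with fewer libraries in the fit. All 614 kept the sign of their fold change in that fit, which was fixed in advance for the genes whose groups did not overlap. The difference between the effects in gfp/gfp and WT cDC1s was called for 0 genes, for 1 with thinned counts and for 0 to 22 without a library, with 22 without WT control library 2. For these counts the cause was not tested. Of the 115 named genes that were called, 86 lost their call without FL library 3, 65 without control library 3, 61 without FL library 1 and 50 without control library 2. The number was 25 without control library 1, 7 without FL library 2 and 34 by limma-voom. No call turned its direction under the settings tried. Same-numbered FL and control libraries had correlations under 0.1 (r = 0.07, 0.04 and 0.02), so the numbers were not used as pairs, and whether they mark shared experiments is not given in the sources used here. A replicate block gave 631 called genes (237 higher and 394 lower) and 0 for the difference. The T cell, neutrophil and erythroid marker lists held no gene with at least 5 CPM in at least 3 libraries and gave no value with that filter. Control library 3 limits the low genes, since 1 CPM stood on 3 counts there.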

Other observations

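The genes with the smallest p for a difference between the effects of FL in *Clec9a* gfp/gfp and in WT cDC1s were named after their values were seen, and none passed the threshold. *Rnf26*, for a ubiquitin ligase of the ER, had log2 fold changes of −1.89 in gfp/gfp and 0.21 in WT cDC1s (adjusted p of the difference 0.316 by limma). *Hnrnpul1*, for a nuclear RNA-binding protein, had −0.97 and 0.48, and *Mtmr2*, for a phosphoinositide phosphatase, −1.54 and 0.17. Of the called genes, 87.6% of those that rose and 99.2% of those that fell were protein coding, against 92.3% of all genes tested.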
